A study of Homo sapiens with 6 samples.

Results

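The HOX genes of the 4 human clusters, the antisense transcripts named after them and the long non-coding RNA CyCoNP (LINC02381) beside the HOXC cluster were followed through an RNA pull-down of CyCoNP. Members were the entries of the gene table whose symbol begins with HOXA, HOXB, HOXC or HOXD, together with HOTAIR, HOTAIRM1, HOTTIP and LINC02381. They were 56 of 60676 entries, namely 39 coding genes, 16 antisense transcripts and CyCoNP. SK-N-BE is an established human neuroblastoma line, and all 6 libraries came from cells at day 1.5 of differentiation in 10 µM retinoic acid. The 2 input libraries sampled the cell extract. The 2 CyCoNP pull-down libraries (CyCoNP PD) held the RNA retrieved from it with biotinylated antisense probes against CyCoNP. The 2 LacZ pull-down libraries (LacZ PD) held the RNA retrieved with probes against LacZ, a bacterial gene absent from these cells. The cDNA was amplified by PCR and sequenced on a Nanopore flow cell, so a count is a read assigned to a gene and CPM is the count scaled to a common library total (counts over the total, times 1e6).

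HOX genes encode homeodomain transcription factors that give cells their position along the head-to-tail axis. Within each cluster the genes lie in the order in which they are expressed along that axis, the low-numbered paralogs at the anterior end, and retinoic acid turns many of them on. The clusters also give rise to antisense long non-coding RNAs, among them HOTAIR, HOTTIP and HOTAIRM1, which are known for roles in the control of chromatin at HOX genes. In the developing spinal cord, combinations of HOX proteins set the identity of motor neuron pools.

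Library totals were 717905 and 791970 counts for the inputs and 1512148 and 514882 for CyCoNP PD, but only 18870 and 140115 for LacZ PD. The reads were amplified by PCR and carry no molecular identifiers, so every interval and limit given here covers error from counting alone. The spread between the libraries of a group lies outside these intervals. Over both libraries of a group, 3 counts corresponded to 1.99 CPM in input, 1.48 CPM in CyCoNP PD and 18.9 CPM in LacZ PD, so most HOX genes could not be measured in LacZ PD. All 11 sympathoadrenal markers of the neuroblastoma lineage had counts in both input libraries, 4 of 4 blood markers had 0 there, and 2 of 4 Schwann markers had 0. Of 4 epithelial markers, 2 had counts in both inputs. Their sum was 4.18 and 7.94 CPM in replicate 1 of input and CyCoNP PD, against 11.4 and 29.1 CPM in replicate 2, from few counts. The summed level of 6 fibroblast or mesenchymal markers was 511, 330 and 477 CPM in the replicate 1 libraries of input, CyCoNP PD and LacZ PD, against 37.9, 62.2 and 21.4 CPM in the replicate 2 libraries, a difference carried by COL1A1, COL1A2 and COL3A1 and not by LUM or DCN. The LacZ PD 1 value rests on few reads, since 3 counts there are 159 CPM.

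The probes define what the pull-down could capture directly, so the stretches in which they match HOX transcripts are shown first. All 22 probes of 20 bases were complementary over their full length to the 2-exon CyCoNP transcript of GENCODE v44, which has 1369 bases. The lines below give, 5′ to 3′, a probe from the study's oligonucleotide table with the stretch in capitals that is exactly complementary to a transcript of the named member. These are the longest such stretches of the antisense transcript that was called, of the coding genes that share exon bases with it, and of a further antisense and a coding member whose CyCoNP PD values are described later.
Probe 1, HOXD-AS2: tggcgaAAAGGGAGGGTgaa
Probe 3, HOXD3: ggaCAGAGTGGGCGCtatag
Probe 22, HOXD8: ccGAAGCGACTGacttctaa
Probe 2, HOXC-AS2: gggaaCTGGAGGGAGAGgtc
Probe 2, HOXC4: gggaactGGAGGGAGAGGtc

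Probe 1 targets chr12:54126147-54126166 of GRCh38, in exon 1 of that transcript on the plus strand. Its 11-base match in HOXD-AS2 lies at chr2:176134646-176134656, in the last exon of a 3-exon transcript on the minus strand. Probe 3 targets chr12:54126328-54126347 and its match in HOXD3 lies at chr2:176161030-176161041, in a first exon and outside the coding sequence. Probe 22 targets chr12:54132670-54132689, in exon 2 of CyCoNP, and its 10-base match in HOXD8 lies in coding sequence at chr2:176131351-176131360. Probe 2 targets chr12:54126277-54126296, with matches in HOXC-AS2 at chr12:53995002-53995013 on the minus strand and in HOXC4, outside the coding sequence, at chr12:54055395-54055405 on the plus strand. A probe match of 11 or more bases was found for 32.9% of the 12528 tested genes with transcripts in GENCODE v44, and the median tested gene had a match of 10 bases. HOXD3 and HOXC-AS2 held matches of 12 bases, a length reached by 10.1% of tested genes. The remaining members other than CyCoNP had matches of 8 to 11 bases, apart from HOXA-AS3 with 12 bases and 0 counts in every library.

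HOXD-AS2 and CyCoNP themselves shared a complementary stretch of 12 bases, shown here with 5 flanking bases on each side and the complementary bases in capitals, both 5′ to 3′.
CyCoNP: tacccGGCCCGCCTGCCctccc
HOXD-AS2: cccgaGGCAGGCGGGCCctcgg
The CyCoNP stretch lies at chr12:54126505-54126516 in exon 1, and the HOXD-AS2 stretch at chr2:176122322-176122333 in exon 3 of a 4-exon transcript. A stretch of at least 12 bases complementary to CyCoNP was present in 67.3% of tested genes. The longest such stretch in a HOX member had 18 bases, in HOXD13, a length reached by 0.0878% of tested genes. HOXD13, the most posterior HOXD gene, had 1 count in each input library and 0 in the other 4 libraries.

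In the input, HOXC genes made up most of the coding HOX counts. They supplied 118 of 169 counts in input 1 (69.8%, 95% Wilson interval 62.5 to 76.2) and 105 of 154 in input 2 (68.2%, 60.5 to 75.0). HOXD genes supplied 38 and 49 counts. HOXA genes had 13 counts in input 1 and 0 in input 2. All 14 HOXB members, 10 coding genes and 4 antisense transcripts, had 0 counts in all 6 libraries, which allows at most 0.812 CPM for any one of them over the 6 libraries together. SNX11 and CALCOCO2, the nearest coding genes with at least 10 counts on either side of the HOXB cluster, named after their values were seen, had 43 and 86 counts in all.

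By paralog group, the position of a gene in its cluster, the input counts of the clusters added up to 78 in group 8, 73 in group 10, 66 in group 9 and 47 in group 4. Groups 6, 3, 11 and 5 had 20, 16, 11 and 8 counts. Group 13 had 3 counts, and groups 2, 7 and 12 had 0. The central paralogs 8 to 10 and HOXC4 thus carried most of the HOX reads in the extract, with few in groups 11 to 13 and 0 in group 2.

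**Figure D1:**
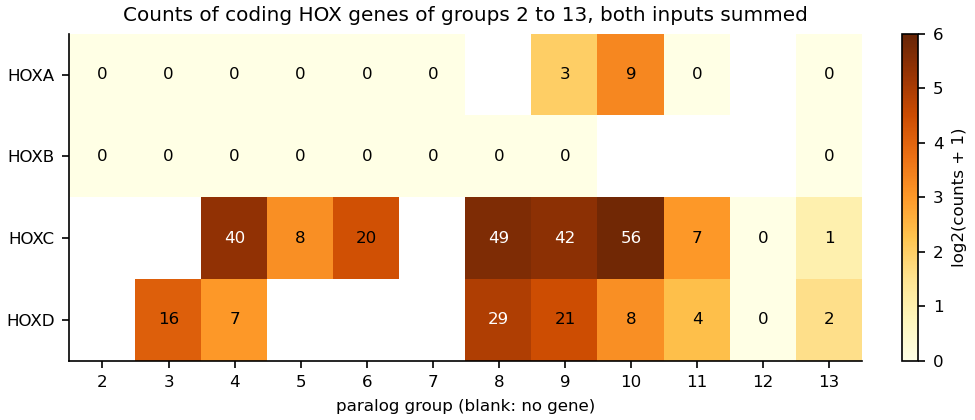
Counts of each coding HOX gene summed over the 2 input libraries, with the clusters in rows and paralog groups 2 to 13 in columns; colour gives log2(counts + 1) and blank cells have no gene. HOXC10 with 56 counts and HOXC8 with 49 counts lead, and the HOXB row is at 0 throughout.

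In plain input CPM, LINC02381 had 27.86 and 49.24 in the 2 input libraries, HOXC10 52.93 and 22.73, and HOXC9 26.47 and 29.04. HOXC8 had 41.79 and 23.99 and HOXC4 had 16.72 and 35.35, so all these ranges overlapped. A count here is a read, and reads need not grow in number with transcript length. Dividing by length can therefore place long members too low. On the scale of input CPM per kilobase of exon, HOXC9 had 15.9 and 17.4 in the 2 input libraries. HOXC10 had 22.3 and 9.59, and HOXC8 had 17.3 and 9.93. HOXC4 followed with 6.04 and 12.8, LINC02381 with 6.41 and 11.3, HOXD9 with 7.44 and 7.42, HOXD8 with 6.36 and 8.16 and HOXD-AS2 with 4.71 and 9.15. Per kilobase, the ranges of HOXC9, HOXC10 and HOXC8 overlapped one another, and those of HOXC4, LINC02381, HOXD9, HOXD8 and HOXD-AS2 overlapped as well. On this scale the place of LINC02381 depends on the length used, 4346 bases for the exons of all its transcripts. Over the 1369 bases of the CyCoNP transcript alone its level was 20.4 and 36.0, with a range that overlapped that of HOXC10. The HOX genes were kept on the exons of all their transcripts, so this level is not on the same footing as theirs. HOXD4, HOXC6, HOXC5, HOXD3, HOXD10, HOXA10, HOTAIR, HOXC11, HOXD11 and HOXC-AS2 had lower means per kilobase, down to 0.629. HOXC9 and HOXC10 belong to the paralogs known for thoracic and lumbar identity in the spinal cord. Exons shared with a neighbour make these levels uncertain for HOXC4 and HOXC6, which share 484 exon bases in the annotation, and for HOXD10 and HOXD11, which share 452.

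Of the 56 members, 19 had at least 10 counts over the 6 libraries and were tested among 12565 genes. They were 15 coding genes, 3 antisense transcripts and CyCoNP. A further 13 had fewer counts, among them HOXC-AS3 with 9, HOXC-AS1 with 8, HOXA9 with 7, HOXA3 with 5, HOXC13 and HOXA5 with 3, HOXD13, HOXD1 and HOXA11 with 2, and HOTAIRM1, HOXA10-AS and HOXA11-AS with 1. The remaining 24, among them HOTTIP, had 0 counts. Because the minimum was set on the total of all libraries, a member high in 1 group could pass through that group, and the values over the tested members describe only those members.

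**Figure D2:**
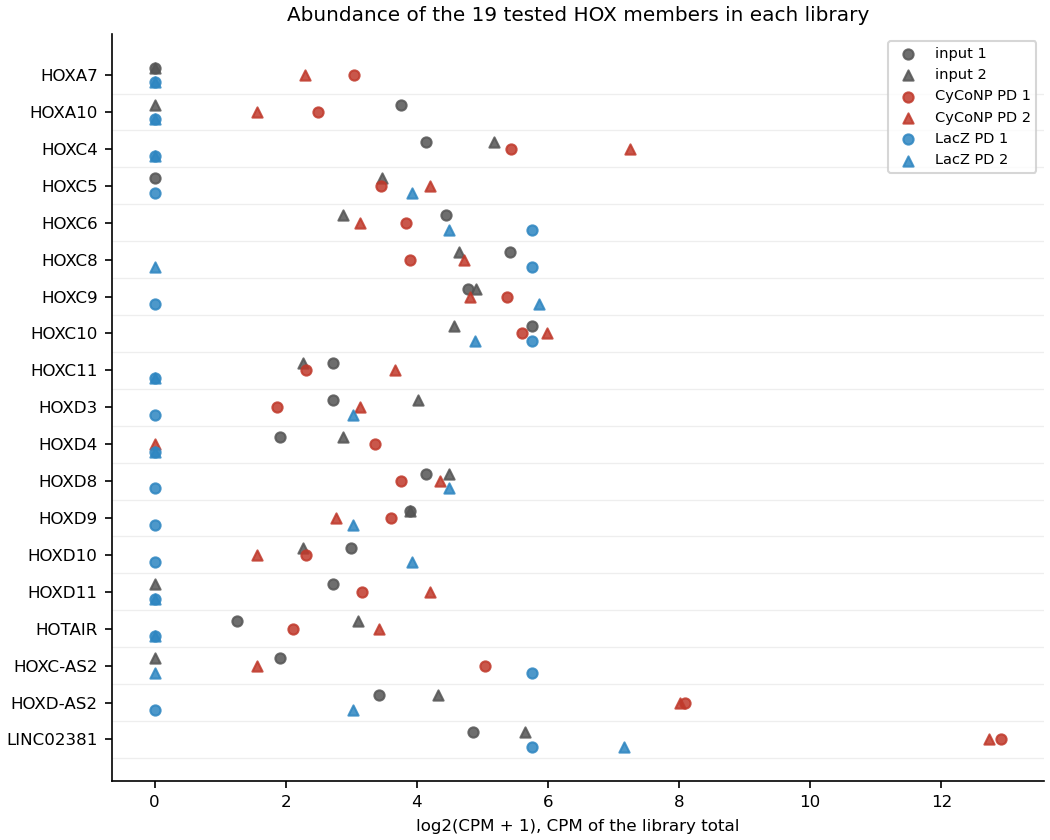
Abundance of the 19 tested members in each library on the scale log2(CPM + 1), with circles for replicate 1 and triangles for replicate 2 and a colour for each group. LINC02381 and HOXD-AS2 stand clear to the right in both CyCoNP PD libraries, and 7 members are at 0 in both LacZ PD libraries.

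CyCoNP, the RNA the probes were designed against, was the first check of the pull-down. LINC02381 (ENSG00000250742) spans chr12:54126019-54147485 of GRCh38 on the plus strand. The inputs held 20 and 39 counts of it, the CyCoNP PD libraries 11687 and 3507. In LacZ PD it had 1 and 20. On the CPM scale it reached 7270 ± 649 (SD, n = 2) in CyCoNP PD against 38.6 ± 15.1 (SD, n = 2) in input and 97.9 ± 63.5 (SD, n = 2) in LacZ PD. Both CyCoNP PD libraries lay far above the other 4, and both LacZ PD values lay above both input values, the one in LacZ PD 1 from a single count. The log2 fold change of CyCoNP PD against input was 7.59 (standard error 0.96, adjusted p = 0.0137 from edgeR). Without LacZ PD replicate 1 or 2, which enter through the shared estimate of spread, the adjusted p was 0.239 or 0.268, and in a fit of only the 2 groups it was 0.271. In these 3 fits edgeR called 0 genes of any kind higher.

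HOXD-AS2 was the HOX member other than CyCoNP that was called higher in CyCoNP PD than in input. This antisense long non-coding RNA (ENSG00000237380) lies at chr2:176121611-176137098 on the minus strand and runs across HOXD9, HOXD8 and the start of HOXD3. The inputs held 7 and 15 counts of it, the CyCoNP PD libraries 411 and 133. In LacZ PD it had 0 and 1. In CPM these were 9.75 and 18.9 in input and 272 and 258 in CyCoNP PD, so the CyCoNP PD libraries lay close together and both stood above every other library. The log2 fold change against input was 4.23 (standard error 0.72, edgeR quasi-likelihood test, adjusted p = 0.0360 by Benjamini-Hochberg over all genes tested), higher in 2 of 2 CyCoNP PD libraries. DESeq2 gave 4.18 with an adjusted p of 5.79e-06. With the replicate number as a block, edgeR gave 4.28 (adjusted p = 9.6e-10), in a fit that called 192 of 12565 genes higher. The edgeR call above was made without that block. The edgeR call rested on libraries outside the comparison, as for CyCoNP: without LacZ PD replicate 1 the adjusted p was 0.244, and without LacZ PD replicate 2 it was 0.268. It was also lost without input replicate 1, at a log2 fold change of 3.77 and an adjusted p of 0.0585, when scaled by library size alone (adjusted p = 0.0533), and in a fit of only the 2 groups (adjusted p = 0.271).

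The coding genes on the opposite strand did not pass the test. HOXD-AS2 shares 642 of its 2071 exon bases with HOXD8 and 379 with HOXD3, and 0 with HOXD9, whose whole span it crosses. These overlaps are those of GENCODE v44, while the reads were counted with an earlier Ensembl release. The strand used in counting is not given in the sources used here, so in shared bases reads of the antisense transcript and of the coding gene cannot be told apart. HOXD8 had 12 and 17 counts in the inputs and 19 and 10 in CyCoNP PD, which gave a log2 fold change of -0.24 (standard error 0.77). HOXD3, an anterior paralog, had 4 and 12 counts in the inputs and 4 in each CyCoNP PD library, at -1.09 (standard error 1.11). HOXD9 had 10 and 11 counts in the inputs and 17 and 3 in CyCoNP PD, at -0.55 (standard error 0.89). In CPM the groups overlapped for HOXD8 and HOXD3, while both CyCoNP PD values of HOXD9, a central paralog, lay below both input values.

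Among the counts of these 4 genes, HOXD-AS2 took 7 of 33 in input 1 (21.2%, 95% Wilson interval 10.7 to 37.8) and 15 of 55 in input 2 (27.3%, 17.3 to 40.2). In CyCoNP PD it took 411 of 451 (91.1%, 88.1 to 93.4) and 133 of 150 (88.7%, 82.6 to 92.8). The shares of the CyCoNP PD libraries did not overlap those of input. With 2 libraries in each group an exact permutation test cannot go below 0.333, here and for every summed value that follows.

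**Figure D3:**
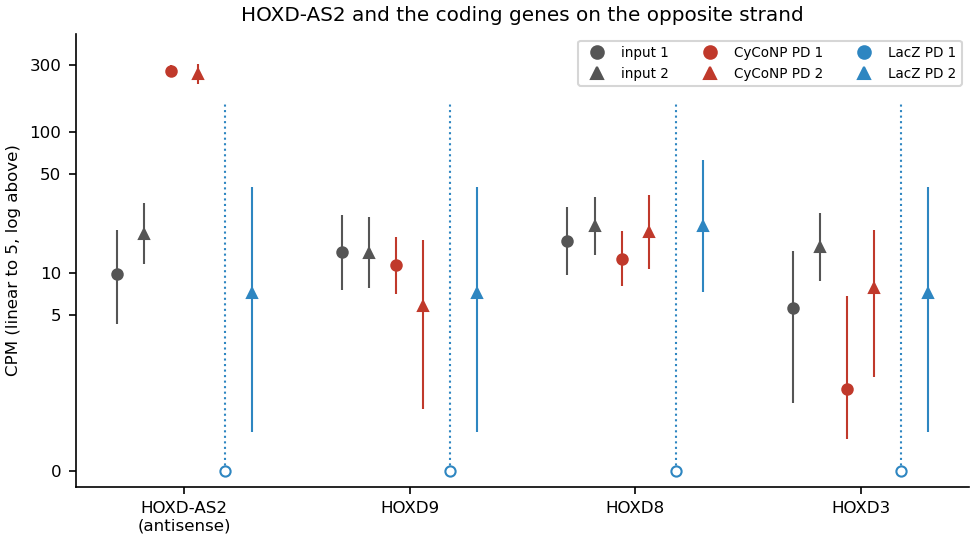
CPM of HOXD-AS2 and of the coding genes HOXD9, HOXD8 and HOXD3 in each library, on an axis that is linear to 5 CPM and logarithmic above, with 95% Wilson intervals; open symbols are libraries at 0 and their dotted lines reach the level of 3 counts. HOXD-AS2 rises to 272 and 258 CPM in the CyCoNP PD libraries, while the coding genes stay at or below 21.5 CPM outside LacZ PD 1. In LacZ PD 1 all of these genes have 0 counts, and 3 counts there are 159 CPM.

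Over the HOX clusters without CyCoNP, antisense transcripts held 14 of 183 counts in input 1 (95% Wilson interval 4.61 to 12.4%) and 25 of 179 in input 2 (9.64 to 19.8%), against 472 of 838 in CyCoNP PD 1 (56.3%) and 143 of 330 in CyCoNP PD 2 (43.3%). Once HOXD-AS2 was left out, the shares were 3.98% and 6.10% in input and 14.3% and 5.08% in CyCoNP PD, and the groups overlapped. In the LacZ PD libraries antisense transcripts held 1 of 4 and 1 of 25 counts.

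HOXC-AS2, antisense to HOXC9, accounted for most of the rest in CyCoNP PD 1. It shares 163 of its 2216 exon bases with HOXC9 and 73 with HOXC6, and in shared bases the reads cannot be told apart. Its counts were 2 and 0 in input, 48 and 1 in the CyCoNP PD libraries and 1 and 0 in the LacZ PD libraries. The pooled CPM was 18.2 times as high in CyCoNP PD as in input. The 95% exact interval, 4.79 to 155, covers counting error in the pooled reads and not the spread between libraries. Nearly all of the CyCoNP PD reads came from 1 library, since CyCoNP PD 2 had a single count, and the groups overlapped in CPM. It was not called (adjusted p = 0.812 from edgeR). HOTAIR, which lies in the HOXC cluster antisense to HOXC11, had 1 and 6 counts in the inputs, 5 in each CyCoNP PD library and 0 in LacZ PD. Its log2 fold change was 0.41 (standard error 1.32), and its libraries overlapped. The remaining antisense transcripts, HOTAIRM1 and those of HOXA included, gave too few counts for a comparison.

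The coding genes of the HOXC cluster showed no call in CyCoNP PD, and HOXC4 was the one whose groups did not overlap. HOXC4, the most anterior gene of its cluster and the one nearest CyCoNP, had 12 and 28 counts in the inputs, 64 and 78 in CyCoNP PD and 0 in both LacZ PD libraries. In CPM the CyCoNP PD libraries were at 42.3 and 151, above the input at 16.7 and 35.4. Both CyCoNP PD values exceeded both input values, though they lay further apart than the lower of them lay from the input. Its log2 fold change came to 1.88 (standard error 0.78), with an unadjusted p of 0.0306 and an adjusted p of 0.818 from edgeR. DESeq2 gave 1.87 with an adjusted p of 0.998.

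HOXC10 had 38 and 18 counts in the inputs, 72 and 32 in the CyCoNP PD libraries and 1 and 4 in the LacZ PD libraries. HOXC9 had 19 and 23 in input, 61 and 14 in the CyCoNP PD libraries and 0 and 8 in the LacZ PD libraries. HOXC8 had 30 and 19 in input, 21 and 13 in the CyCoNP PD libraries and 1 and 0 in the LacZ PD libraries. In CPM the input and CyCoNP PD libraries of each of these 3 genes of paralog groups 8 to 10 overlapped, and the log2 fold changes against input were 0.62, 0.37 and -0.70, with standard errors of 0.65, 0.72 and 0.78. HOXC6 had 15 and 5 counts in the inputs and 20 and 4 in CyCoNP PD. HOXC5 had 0 and 8 counts in the inputs and 15 and 9 in CyCoNP PD. HOXC11 had 4 and 3 counts in the inputs and 6 in each CyCoNP PD library. Each of these also overlapped between the groups, at log2 fold changes of -0.20, 1.34 and 0.69.

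Summed over the cluster, HOXC coding genes were at 164 and 133 CPM in input and 173 and 303 CPM in CyCoNP PD. The ratio of the means was 1.60 and the groups did not overlap (exact permutation p = 0.333, the smallest possible). HOXC4 alone made up 151 of the 303 CPM in CyCoNP PD 2.

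HOXD coding genes, summed, were at 52.9 and 61.9 CPM in input and 48.3 and 54.4 CPM in CyCoNP PD, so the groups overlapped (ratio of means 0.894, exact permutation p = 0.667). HOXD-AS2, the antisense member of this cluster, had a ratio of 18.5 over the same libraries. HOXD11, a posterior paralog, had 4 and 0 counts in the inputs and 12 and 9 in CyCoNP PD, so both CyCoNP PD libraries were the higher ones. Its log2 fold change was 2.19 (standard error 1.32, unadjusted p = 0.121 from edgeR). HOXD4 had 2 and 5 counts in the inputs and 14 and 0 in CyCoNP PD, and HOXD10 had 5 and 3 counts in the inputs and 6 and 1 in CyCoNP PD. Both overlapped, with log2 fold changes of 0.28 and -0.62.

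The coding HOXA genes were seen mainly in the replicate 1 libraries. They had 13 counts in input 1 and 0 in input 2, and 32 counts in CyCoNP PD 1 and 3 in CyCoNP PD 2, with 0 in both LacZ PD libraries. On the CPM scale the sums were 18.1 and 21.2 in the replicate 1 libraries of input and CyCoNP PD, against 0 and 5.83 in the replicate 2 libraries, where 3 counts are 3.79 and 5.83 CPM. The summed fibroblast or mesenchymal markers were higher in the same replicate 1 libraries, with COL1A1, a collagen gene, at 192 and 186 counts there and 10 and 3 in the replicate 2 libraries, whereas LUM had 8 counts in each of the former and 15 and 20 in the latter. Their part in the HOXA values was not tested. In such bulk libraries, more cells of a type and more RNA per cell cannot be told apart.

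**Figure D4:**
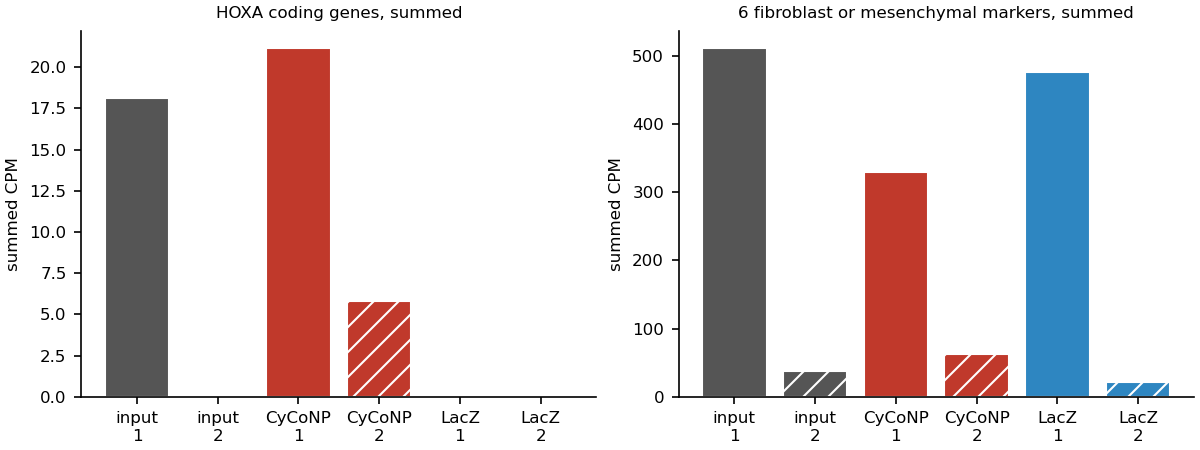
Summed CPM of the coding HOXA genes (left) and of 6 fibroblast or mesenchymal markers (right) in each library, with replicate 2 hatched. Replicate 1 of input and of CyCoNP PD reaches 18.1 and 21.2 CPM of HOXA reads, and the markers reach 511, 330 and 477 CPM in the replicate 1 libraries against 37.9, 62.2 and 21.4 CPM in replicate 2.

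HOXA7 was the HOXA gene with counts in both CyCoNP PD libraries and 0 in input. It had 11 and 2 counts in CyCoNP PD, which makes the pooled level at least 3.23-fold higher than the level of 3 counts in input. It was not called (unadjusted p = 0.0293, adjusted p = 0.815 from edgeR). HOXA10 had 9 and 0 counts in the inputs and 7 and 1 in CyCoNP PD, and the libraries overlapped.

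Over the tested members, CyCoNP and HOXD-AS2 were called higher in CyCoNP PD against input and 0 were called lower, where a call needed an adjusted p under 0.05 together with a change of more than 1 on the log2 scale. Among all genes tested, 0.119% were called higher and 0.00796% lower. CyCoNP is the RNA the probes target, so HOXD-AS2 was 1 call among the 18 other tested members. At an unadjusted p under 0.05, 5 members were higher (LINC02381, HOXD-AS2, HOXC-AS2, HOXA7 and HOXC4) and 0 were lower, against 3.08% and 2.32% of all genes. HOXA7 and HOXC-AS2 reached the minimum of 10 counts only through CyCoNP PD, the group in which they were high, so they lend no support to that count. DESeq2 called the same 2 members higher and 0 lower, with 0.462% of genes called higher and 0.111% lower. It gave an adjusted p only to LINC02381, HOXD-AS2, HOXC4, HOXC8, HOXC9 and HOXC10, so it could call no other member. Both CyCoNP PD libraries lay above both inputs for LINC02381, HOXD-AS2, HOXC4, HOXD11 and HOXA7, and below both inputs for HOXD9, against 15.9% and 20.3% of all genes. HOXD11 and HOXA7 reached the minimum only through CyCoNP PD, and LINC02381 is the probe target, so they lend no support to that count.

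The median log2 fold change of the 19 members was 0.41, also with HOXA7 placed at its bound, beside -0.01 over all genes tested. For the 15 coding genes it was 0.28, for 7 HOXC coding genes 0.62 and for 6 HOXD coding genes -0.40. Of the 15 coding genes, 8 had a positive value and 7 a negative one. The 19 members include CyCoNP, the probe target. HOXA7, HOXC-AS2, HOXD11, HOTAIR, HOXC11, HOXD4 and HOXA10 reached the minimum count only through CyCoNP PD. The medians therefore lend no support to a rise of HOX members in CyCoNP PD.

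**Figure D5:**
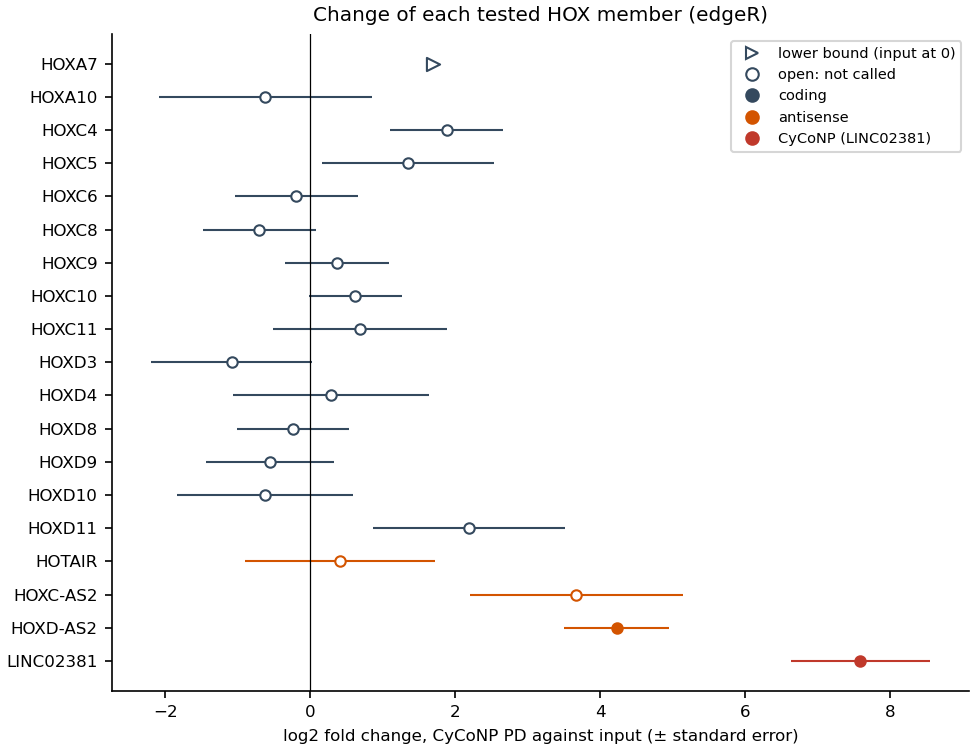
Log2 fold change of each tested member in CyCoNP PD against input from edgeR, with standard errors; filled points passed the test, open points did not, and the triangle of HOXA7 marks the lower bound given by 0 counts in input. LINC02381 at 7.59 and HOXD-AS2 at 4.23 are the filled points, and most coding genes lie within 1 standard error of 0.

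In LacZ PD the HOX members were hardly sampled. Coding genes had 3 counts in LacZ PD 1 and 24 in LacZ PD 2, and 15 of the 19 tested members had at most 3 counts over both libraries. Against input, 0 members were called higher and 0 lower by edgeR or by DESeq2, beside 0.0% and 0.0% of all genes with edgeR and 0.0478% and 0.422% with DESeq2. DESeq2 gave an adjusted p to LINC02381 alone among these members (0.414), so it could not have called the others. At an unadjusted p under 0.05 edgeR put 0 higher and 1 lower (HOXC4), beside 0.74% and 6.28% of all genes, and DESeq2 put 0 in either direction, beside 0.732% and 2.97%. HOXC4 at 0 counts was at least 1.40-fold lower than in input. The members with more than 3 counts were LINC02381, HOXC9, HOXC10 and HOXC6, at log2 fold changes of 1.20, 0.36, -0.50 and 0.70, with standard errors of 0.82, 0.87, 0.85 and 1.09. Those of LINC02381 and HOXC9 rest on LacZ PD 2, since LacZ PD 1 held 1 count and 0 counts of them, too few at its depth to give a direction. The fitted median over the 19 members was -1.08, and 0 with the 7 members at 0 counts placed at their bounds or, where the depth gave no bound, at 0. The fitted median of all genes, without such placing, was -0.68.

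Set directly against LacZ PD, CyCoNP PD gave 0 members called in either direction with edgeR (0.0% of all genes higher and 0.0% lower), with 3 members higher at an unadjusted p under 0.05 and 0 lower, beside 4.74% and 0.462%. Those 3 were LINC02381 at a log2 fold change of 6.39 (adjusted p = 0.0785), HOXD-AS2 (adjusted p = 0.0937) and HOXC4 (adjusted p = 0.397). DESeq2 called LINC02381 and HOXD-AS2, with 0.287% of genes called higher and 0.0159% lower, and edgeR with the replicate number as a block called these and HOXC4, with 0.724%. In DESeq2 without the block, only LINC02381, HOXD-AS2, HOXC4 and HOXC10 had an adjusted p there, so no other member could be called. With 544 counts in CyCoNP PD and 1 in LacZ PD, the pooled CPM of HOXD-AS2 was 42.7 times as high. Its 95% exact interval, 7.63 to 1688, also covers counting error in the pooled reads and not the spread between libraries. HOXC4 had 142 counts against 0 and was at least 3.71-fold higher. The comparisons share libraries, so their values are not independent of one another. The fitted median of the 19 members was 1.71. It was 0.01 with the 7 members at 0 in LacZ PD reset, HOXC4 to its bound and the others, for which the depth gave no bound, to 0. The fitted median over all genes, without such a reset, was 0.64.

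Because the study examined miR-4492 as a microRNA partner of CyCoNP, the members' transcripts were searched for sites of its seed. The mature sequence from RefSeq (GRCh38.p14, chr11:118910765-118910781, plus strand) is given 5′ to 3′ with the seed, bases 2 to 8, in capitals.
hsa-miR-4492: gGGGCUGGgcgcgcgcc
The complementary site CCAGCCC, searched on the sense strand of the longest transcript of each gene, was present in 11 of 15 tested coding members (73.3%) and in 43.8% of tested genes with transcripts. HOXC8 held 5 sites, HOXC10 and HOXD3 held 3 each and HOXD-AS2 held 0. The longest LINC02381 transcript held 1, and the 1369-base CyCoNP transcript that the probes match held 2. The coding members had a median transcript of 1976 bases and a median GC content of 54.1%, against 3520 bases and 47.2% over all tested genes. HOXD-AS2 had the highest GC content of the tested members at 65.2%, and its longest transcript, of 999 bases, was the shortest among them. A site is a match of letters in a GC-rich word, not evidence of binding.

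Around CyCoNP on chromosome 12, 9 of 51 non-HOX entries within 500000 bases were tested and 0 were called by edgeR or by DESeq2, with 2 above and 0 below input at edgeR's unadjusted p under 0.05, against 3.08% and 2.32% of all genes. Their median log2 fold change in CyCoNP PD against input was 0.93, with 8 positive values and 1 negative, beside -0.01 over all genes. In CyCoNP PD against LacZ PD the median was 0.38, with 7 positive and 2 negative, beside 0.64 over all genes. In LacZ PD against input it was -0.26, with 4 positive and 5 negative, beside -0.68 over all genes. SMUG1, a DNA glycosylase gene on the opposite strand whose span covers all of LINC02381, had 16 and 22 counts in the inputs, 156 and 71 in the CyCoNP PD libraries and 0 and 3 in the LacZ PD libraries. Its log2 fold change was 2.30 (standard error 0.67, unadjusted p = 0.00403, adjusted p = 0.364 from edgeR), and the groups did not overlap. It shares 0 exon bases with LINC02381, and the longest probe match in it was 10 bases. HNRNPA1, which encodes an RNA-binding protein, had 296 and 409 counts in the inputs and 1946 and 767 in CyCoNP PD, which gave a log2 fold change of 1.63 (adjusted p = 0.812). In LacZ PD against input HNRNPA1 was at 1.14, and in CyCoNP PD against LacZ PD it was at 0.49. ATP5MC2, CBX5, COPZ1 and ATF7 were at 0.08, -0.43, 1.15 and 0.93 in CyCoNP PD against input, and COPZ1 was at 1.104 in LacZ PD against input.

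Within the HOX spans themselves, 2 of 45 other entries were tested. HAGLR, an antisense RNA of the HOXD cluster that the rule on names did not take in, had 5 and 2 counts in the inputs and 9 and 3 in CyCoNP PD. MIR10B, the microRNA gene next to HOXD4, had 5 and 9 counts in the inputs and 0 in all 4 pull-down libraries. It was not called (unadjusted p = 0.0105, adjusted p = 0.573 from edgeR).

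Transcripts of the TALE genes, which encode homeodomain cofactors that bind DNA together with HOX proteins, were not called in CyCoNP PD. Of 11 genes 9 were tested, and the other 2 had 0 counts in both inputs. By edgeR or DESeq2 0 were called. At edgeR's unadjusted p under 0.05, 0 lay above input and 1 below, against 3.08% and 2.32% of all genes, and the median log2 fold change was -0.36. MEIS2 had 88 and 130 counts in the inputs and 102 and 18 in CyCoNP PD, and MEIS1 had 80 and 98 in input and 115 and 52 in CyCoNP PD. MEIS2 was the lowest of the list at -1.40 (unadjusted p = 0.0442, adjusted p = 0.897 from edgeR), and TGIF2, MEIS3 and PBX3 were at -0.61, -0.96 and -0.16. In LacZ PD against input MEIS2 was at -2.04, and in CyCoNP PD against LacZ PD it was at 0.64. Among genes of retinoic acid handling and upstream control of HOX expression, 12 of 21 were tested. Of these 0 were called by edgeR or DESeq2 and 0 passed an unadjusted p under 0.05 in edgeR, with a median of 0.06. CRABP1 and CRABP2, which bind retinoic acid in the cytoplasm, had 305 and 451 and 171 and 198 counts in input. CYP26A1, the retinoic acid degrading enzyme, had 35 and 21. Their log2 fold changes were 0.10, 0.84 and 0.45. DHRS3, KMT2A and ASH1L were at 1.35, -0.66 and 0.01.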

How the data were processed

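RNA from 2 input, 2 CyCoNP PD and 2 LacZ PD samples of SK-N-BE cells was amplified as cDNA and sequenced on Nanopore. Reads were aligned by the authors with minimap2 2.24-r1122 to GRCh38 and quantified with Bambu, and the deposited counts per gene were used as given. The deposited CPM values, made by the authors, equalled the counts over the library total to within 5.1e-11. The strand used in counting is not given in the sources used here.

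Symbols came from GENCODE 44, which named 60357 of 60676 entries. Exon lengths, shared exon bases and transcripts were also taken from GENCODE 44. The authors counted reads with an earlier Ensembl release, in which exons and their overlaps may differ. The 12565 genes with at least 10 counts over the 6 libraries were fitted together in edgeR 4.0.16 (R 4.3.3) with TMM scaling and the quasi-likelihood F test, and p-values were adjusted by Benjamini-Hochberg. DESeq2 1.42.0, other scalings and filters, a fit of only the groups compared, the replicate block and leaving out each library were alternatives. Library totals ran from 18870 to 1512148 counts. Summed CPM values were compared by two-sided exact permutation tests (scipy 1.17.1), and Wilson or exact intervals are at 95%. The edgeR and DESeq2 fits of CyCoNP PD against input were tested on simulated data.

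The groups and replicate numbers were those in the labels. The study describes the pull-down samples as biological duplicates. The labels do not tie replicates to separate cultures, so p-values measure the spread between these libraries, which may be technical. Libraries of the same number deviated together from their group means (correlations of 0.442, 0.219 and 0.225 for the 3 pairs of groups), so the numbers were taken to pair them. The main fit did not include this pairing, which entered only the fits with the replicate block. Every member with at least 10 counts was named, those with fewer were listed, and other genes came from lists of neighbours, TALE cofactors and retinoic acid genes, up to 6 of each by mean input CPM. Values of some of these genes are not reported here. The members and lists were chosen with earlier results of these data known.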

Additional observations from a re-analysis of the deposited data

How the results depend on the processing

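The count of HOX members called higher in CyCoNP PD against input, 2, was 1 when scaled by library size alone, 0 in a fit of only the 2 groups, and 0 to 2 when a library was left out, with 1 without input replicate 1 and 0 without LacZ PD replicate 1 or 2. The log2 fold change of HOXD-AS2 was 4.18 with library size alone (adjusted p = 0.0533 from edgeR) and 4.23 with the 2 groups (0.271), and ranged from 3.77 to 4.89 with a library left out. That of LINC02381 was 7.60 with the 2 groups (adjusted p = 0.271) and 7.17 to 8.18 with a library left out. Against LacZ PD, where edgeR called 0 members higher, library size alone called 1 (1 of 12565 genes in all), DESeq2 2 (36 of 12565), no count filter 3 (59 of 22293), the 2 groups 3 (57 of 10585), and leaving out a library 0 to 3. With the replicate number as a block edgeR called 3 (91 of 12565) and DESeq2 called 2 (52 of 12565) in that comparison, and the block left the count of 2 against input as it was. Against input, edgeR with the block gave adjusted p-values of 3.4e-15 for LINC02381 and 9.6e-10 for HOXD-AS2. It called 192 of 12565 genes higher, against 15 without the block. The fitted median of the members against LacZ PD was 3.16 with the 2 groups, a fit that tested 16 members. It was 1.68 to 5.16 with a library left out. The fitted median of LacZ PD against input ran from -4.74 to -0.44, the lowest without LacZ PD replicate 2. These medians include fitted values of members at 0 in LacZ PD. Resetting such members in the main fit took the 2 medians from 1.71 to 0.01 and from -1.08 to 0.

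Directions turned for members with small changes. HOXC9 in CyCoNP PD against LacZ PD, 0.01, was -0.37 when scaled by library size alone and -0.18 by DESeq2 size factors, was -0.12 under DESeq2 itself and -0.12 under filterByExpr, and was -0.0026 with the 2 groups, -0.039 with the replicate block, and -0.48 to 7.65 with a library left out. In CyCoNP PD against input the DESeq2 replicate block gave -1.41 for HOXD4 and 0.41 for HOXA10. With a library left out, values ran from -0.24 to 1.07 for HOXD4, -0.76 to 0.75 for HOXC6, -0.38 to 2.09 for HOTAIR, -0.51 to 0.062 for HOXD8 and -0.12 to 1.33 for HOXC11. In LacZ PD against input they ran from -0.90 to 0.062 for HOXC10, -7.28 to 0.84 for HOXC9 and -0.72 to 1.80 for LINC02381. The lowest values of HOXC9 and LINC02381 there, and the highest of HOXC9 against LacZ PD, are fits to LacZ PD 1 alone, with 0 counts and 1 count, and measure no direction. The cause was not tested. Scaling by library size alone moved the median of all genes in LacZ PD against input from -0.68 to -0.34, and in CyCoNP PD against LacZ PD from 0.64 to 0.22. LacZ PD 1 held 18870 counts, so differences of HOX genes from LacZ PD were mostly not detectable at this depth.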
